A study of Caenorhabditis elegans with 18 samples.

Results

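The outer kinetochore genes of Caenorhabditis elegans were followed in a strain that lacks normal function of lin-35, the single worm gene of the retinoblastoma (pocket protein) family. The list held kbp-1, kbp-2, kbp-3, kbp-4, kbp-5, knl-1, knl-3, mis-12, ndc-80 and him-10, and a gene counted as measured where an Affymetrix probe set named it alone in the platform annotation. By that rule 8 of the 10 genes were measured, out of 17118 genes with a probe set of their own, and kbp-1 and kbp-2 were not analysed here. Where a gene had several such probe sets, the one with the highest mean over the 18 arrays was used, which applied to knl-1 with its 2 probe sets. The main probe sets of knl-1, knl-3 and mis-12 are of the kind whose probes Affymetrix marks as able to match more than a single transcript.

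The kinetochore is the protein assembly that ties each chromosome to spindle microtubules during cell division. In worms the chromosomes are holocentric, so kinetochores form along the whole length of each condensed chromosome. The outer layer is built around the KMN network, which joins the scaffold KNL-1, the MIS-12 complex and the NDC-80 complex. The MIS-12 complex, with MIS-12, KNL-3, KBP-1 and KBP-2 as its subunits, connects the network to centromeric chromatin. The NDC-80 complex, made of NDC-80, HIM-10 (the counterpart of Nuf2 in yeast), KBP-3 and KBP-4, holds the microtubule. KBP-5 was identified through its association with these proteins. LIN-35 acts with E2F and DP factors in a complex that represses transcription, and genes of the cell cycle are known targets of retinoblastoma family proteins.

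Total RNA was taken from whole N2 worms, the laboratory wild type, and from whole worms carrying lin-35(n745), with no further allele or treatment named for either strain. Each strain was sampled as embryos, as first-stage larvae (L1) and as fourth-stage larvae (L4), the larvae being synchronized hermaphrodites fed on the bacterial strain OP50. The 6 groups held 3 arrays each, from animals that the design text describes as independently grown and isolated. The mutant was represented by 1 allele, and in whole worms fewer cells of a type and less RNA per cell cannot be told apart. The comparisons ask how loss of lin-35 function bears on transcript levels in embryos and larvae, and whether its effect depends on development.

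Levels are the authors' RMA values on a log2 scale, so a difference of 1 stands for a 2-fold change. Differences are given as lin-35(n745) minus N2 or as the later stage minus the earlier stage, ± SE from a limma fit over all 18 arrays, with n = 3 arrays per group. Adjusted p-values are those of limma after Benjamini-Hochberg adjustment over 22548 probe sets, and a gene was called where its adjusted p was under 0.05. Levels of different genes come from different probes and were not set against each other.

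The lin-35 probe set was lower on every mutant array than on every N2 array of its stage. Its level differed by -1.38 ± 0.15 in embryos, -1.27 ± 0.15 at L1 and -1.25 ± 0.15 at L4, with adjusted p = 2.07e-06, 3.29e-06 and 4.35e-06. Stage labels were set against marker lists: the array means of 8 sperm genes lay between 9.80 and 9.92 at L4 and between 4.55 and 5.93 at the other stages, and those of 8 embryonic patterning genes lay between 6.99 and 7.35 in embryos and between 5.32 and 5.85 in larvae. Replicate 1 of both strains in embryos stood apart in hybridization controls, with the BioDn-3 probe set at 10.23 and 10.55 against 12.20 to 12.29 on the other 4 embryo arrays. The lin-35(n745) L1 group had the widest spread, with a median SD of 0.164 over all probe sets against 0.097 to 0.13 in the other groups. In that group replicate 2 was the lowest array for 7 of the 8 genes and replicate 1 the highest for 6.

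The outer kinetochore genes were higher in lin-35(n745) larvae than in N2 larvae, and most of them were not told apart between the strains in embryos. At L1, 7 of the 8 genes rose, where 8.24% of all probe sets were called higher. 6 of these rose by at least 2-fold, which 2% of all probe sets did. At L4, again 7 of the 8 rose, against 7.77% of all probe sets, while in embryos 2 of the 8 rose and 0 fell, against 5.92% and 3.78% of all probe sets. At an unadjusted p under 0.05, limma gave 4 higher and 1 lower in embryos, against 10.2% and 11.7% of all probe sets. kbp-5 was the gene not called at any stage. The median difference over the 8 genes was 0.205 in embryos, 1.2 at L1 and 0.735 at L4, beside -0.034, -0.0369 and -0.0323 over all probe sets. Centring each array on its median left these counts at 2, 7 and 7, while at L1 it moved the calls over all probe sets from 1859 higher and 1564 lower to 1569 and 2302.

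Every L1 array of the mutant lay above every L1 array of N2 for all 8 genes, a pattern that 12.5% of probe sets showed. At L4 the same held for 7 of the 8, with 16.1% of probe sets as the background. In embryos the mutant arrays lay wholly above the N2 arrays for 5 genes and wholly below them for ndc-80, where 11.5% and 14.3% of probe sets did so.

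**Figure D1:**
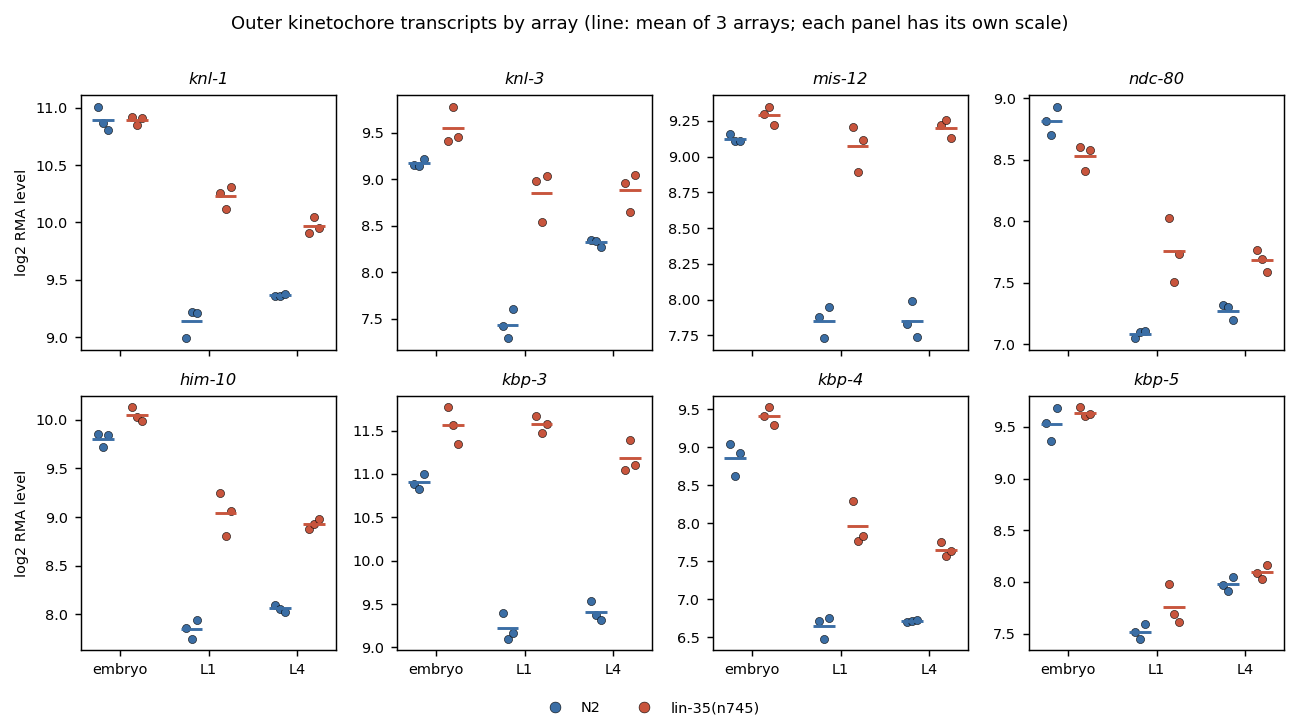
Log2 RMA level of each of the 8 outer kinetochore genes on every array, by stage (x axis) and strain (blue N2, red lin-35(n745)); points are arrays, lines are means of 3 arrays, and each panel has its own y scale. The strains lie apart at L1 for all 8 genes, and the N2 points drop from embryo to L1 in every panel.

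knl-1 encodes the scaffold that binds both other complexes and recruits checkpoint proteins. Its embryo level was 11.01, 10.87 and 10.81 on the N2 arrays and 10.92, 10.85 and 10.91 on the lin-35(n745) arrays. At L1 it was 8.99, 9.22 and 9.21 in N2 and 10.26, 10.12 and 10.31 in the mutant. At L4 it was 9.36, 9.36 and 9.38 in N2 and 9.91, 10.05 and 9.95 in the mutant. The strains overlapped in embryos and were fully separate at both larval stages. The mutant level was higher by 1.09 ± 0.09 at L1 (2.13-fold, adjusted p = 2.88e-08) and by 0.61 ± 0.09 at L4 (1.52-fold, adjusted p = 8.2e-05). In embryos the difference was -0.00 ± 0.09 (95% interval -0.19 to 0.19, adjusted p = 0.997). The second knl-1 probe set differed by 0.25 ± 0.12 in embryos (adjusted p = 0.247), 0.90 ± 0.12 at L1 (adjusted p = 2.12e-05) and 0.64 ± 0.12 at L4 (adjusted p = 0.000852), so both probe sets were called at the same stages.

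Of the MIS-12 complex, knl-3 and mis-12 were measured. knl-3 stood at 9.15, 9.14 and 9.22 in N2 embryos and at 9.41, 9.78 and 9.45 in mutant embryos. Its L1 level was 7.42, 7.29 and 7.60 in N2 and 8.98, 8.54 and 9.03 in lin-35(n745). Its L4 level was 8.35, 8.34 and 8.27 in N2 and 8.96, 8.65 and 9.05 in lin-35(n745). No array of one strain fell within the range of the other at any stage. The strain difference was 1.42 ± 0.13 at L1 (2.67-fold, adjusted p = 1.64e-07) and 0.57 ± 0.13 at L4 (1.49-fold, adjusted p = 0.00527). The embryo difference of 0.37 ± 0.13 was not called (95% interval 0.09 to 0.66, adjusted p = 0.0915).

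mis-12 gives the complex its name. Its N2 embryos measured 9.16, 9.11 and 9.11 and its mutant embryos 9.30, 9.35 and 9.22. N2 larvae measured 7.88, 7.73 and 7.95 at L1 and 7.83, 7.99 and 7.74 at L4. lin-35(n745) larvae measured 9.21, 8.89 and 9.12 at L1 and 9.22, 9.26 and 9.13 at L4. All mutant larval arrays thus lay near the embryo arrays and well above the N2 larval arrays. The mutant was higher by 1.22 ± 0.10 at L1 (2.33-fold, adjusted p = 1.54e-08) and by 1.35 ± 0.10 at L4 (2.55-fold, adjusted p = 3.56e-09). In embryos the groups did not overlap, but the difference of 0.16 ± 0.10 was not called (95% interval -0.04 to 0.37, adjusted p = 0.372). mis-12 was the only one of the 8 genes whose difference at L4 was at least as large in value as at L1, and the 2 were not told apart (0.13 ± 0.14, adjusted p = 0.709).

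kbp-3, a subunit of the NDC-80 complex, showed the widest strain difference of the 8 genes in every stage. In embryos it stood at 10.88, 10.83 and 11 in N2 and at 11.77, 11.57 and 11.34 in the mutant. At L1 the N2 arrays gave 9.40, 9.10 and 9.17 and the lin-35(n745) arrays 11.67, 11.47 and 11.58. At L4 the N2 arrays gave 9.53, 9.37 and 9.32 and the lin-35(n745) arrays 11.05, 11.39 and 11.10. The mutant larval arrays all lay above the N2 embryo arrays, which hold the highest N2 levels of the gene. kbp-3 rose by 0.66 ± 0.12 in embryos (1.58-fold, adjusted p = 0.00107), by 2.35 ± 0.12 at L1 (5.1-fold, adjusted p = 1.26e-11) and by 1.78 ± 0.12 at L4 (3.42-fold, adjusted p = 1.26e-09). Its L1 difference ranked 107 from the highest among 22548 probe sets. The embryo difference was 0.90 between the replicate 1 arrays that stood apart in hybridization controls, and 0.54 on average for replicates 2 and 3.

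kbp-4 encodes another subunit of the same complex. Its embryo level was 9.04, 8.63 and 8.92 in N2 and 9.42, 9.53 and 9.30 in lin-35(n745). Its L1 level was 6.71, 6.48 and 6.76 in N2 and 8.29, 7.77 and 7.84 in the mutant. Its L4 level was 6.70, 6.72 and 6.73 in N2 and 7.75, 7.57 and 7.63 in the mutant. The strains were separate at all 3 stages, with the largest gap at L1. kbp-4 rose by 0.55 ± 0.13 in embryos (1.47-fold, adjusted p = 0.00851), by 1.32 ± 0.13 at L1 (2.5-fold, adjusted p = 2.58e-07) and by 0.93 ± 0.13 at L4 (1.91-fold, adjusted p = 2.97e-05). The embryo call was lost without replicate 2 of N2, at 0.44 with adjusted p = 0.058. Between same-numbered embryo arrays the difference was 0.38, 0.90 and 0.38, with replicate 2 the widest.

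him-10 stood at 9.85, 9.72 and 9.84 in N2 embryos and at 10.13, 10.03 and 9.99 in mutant embryos. N2 larvae gave 7.86, 7.75 and 7.94 at L1 and 8.10, 8.06 and 8.03 at L4. Mutant larvae gave 9.25, 8.81 and 9.06 at L1 and 8.88, 8.93 and 8.98 at L4. The mutant arrays were the higher ones at every stage without overlap. him-10 rose by 1.19 ± 0.10 at L1 (2.28-fold, adjusted p = 3.69e-08) and by 0.86 ± 0.10 at L4 (1.82-fold, adjusted p = 3.55e-06). Its embryo difference of 0.25 ± 0.10 was not called (95% interval 0.03 to 0.46, adjusted p = 0.155). A separate probe set that the annotation assigns to him-10 together with R12B2.3 was outside the rule and stayed between 3.26 and 3.73 on all arrays, a level at which RMA values cannot be told from background.

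ndc-80 encodes the subunit that contacts the microtubule. In embryos it measured 8.81, 8.70 and 8.93 in N2 and 8.60, 8.41 and 8.58 in the mutant. At L1 it measured 7.05, 7.10 and 7.11 in N2 and 8.03, 7.51 and 7.73 in the mutant. At L4 it measured 7.32, 7.30 and 7.20 in N2 and 7.77, 7.69 and 7.59 in the mutant. The mutant arrays were thus below the N2 arrays in embryos and above them in larvae. ndc-80 rose by 0.67 ± 0.11 at L1 (1.59-fold, adjusted p = 0.000268) and by 0.41 ± 0.11 at L4 (1.33-fold, adjusted p = 0.0158). The L4 call was lost without replicate 3 of N2 (0.37, adjusted p = 0.0741) or without replicate 1 of the mutant (0.37, adjusted p = 0.0678). In embryos the difference was -0.28 ± 0.11 and was not called (95% interval -0.52 to -0.05, adjusted p = 0.136).

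kbp-5 was the exception in the group. N2 embryos gave 9.54, 9.36 and 9.68 and mutant embryos 9.69, 9.60 and 9.62. At L1 the values were 7.52, 7.45 and 7.59 in N2 and 7.98, 7.69 and 7.61 in lin-35(n745). At L4 they were 7.97, 7.91 and 8.05 in N2 and 8.09, 8.03 and 8.16 in lin-35(n745). The strains overlapped in embryos and at L4 and were separated by a narrow margin at L1. The differences were 0.11 ± 0.11 in embryos (95% interval -0.11 to 0.33, adjusted p = 0.607), 0.24 ± 0.11 at L1 (0.02 to 0.46, adjusted p = 0.142) and 0.12 ± 0.11 at L4 (-0.10 to 0.33, adjusted p = 0.571). A change at L1 of more than 0.46 was thus outside its interval, while the lowest lower bound among the other 7 genes at L1 was 0.43, for ndc-80. Without replicate 1 of the mutant the L1 difference was 0.13 (adjusted p = 0.494). Whether kbp-5 differed from the other genes in its strain difference was not tested.

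**Figure D2:**
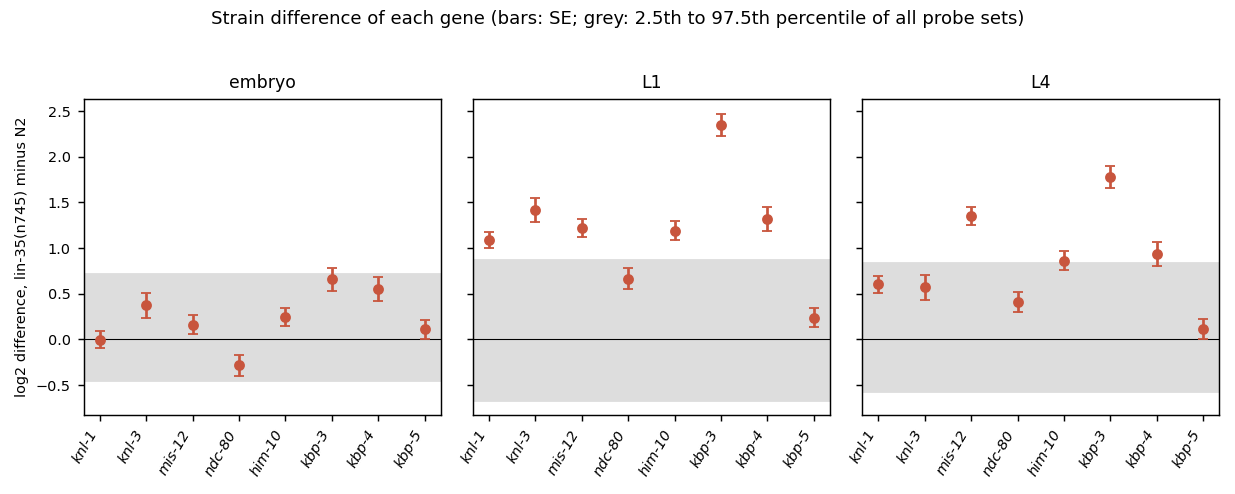
Log2 difference, lin-35(n745) minus N2, of each gene in embryos, L1 and L4 (points, with SE bars from the limma fit; n = 3 arrays per group); the grey band runs from the 2.5th to the 97.5th percentile of all probe sets. At L1 knl-1, knl-3, mis-12, him-10, kbp-3 and kbp-4 lie above the band, whose upper edge is 0.865, and in embryos all 8 lie within it.

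The dependence on stage was tested as the difference between the strain differences. From embryo to L1 the strain difference grew for 7 of the 8 genes, where 4.83% of all probe sets did so. kbp-3 gained 1.69 ± 0.17 (adjusted p = 1.29e-06), knl-1 gained 1.09 ± 0.13 (adjusted p = 1.08e-05), mis-12 gained 1.06 ± 0.14 (adjusted p = 3.78e-05) and knl-3 gained 1.04 ± 0.19 (adjusted p = 0.00122). ndc-80 gained 0.95 ± 0.16 (adjusted p = 0.000529), him-10 gained 0.94 ± 0.15 (adjusted p = 0.000206) and kbp-4 gained 0.77 ± 0.18 (adjusted p = 0.0109). The kbp-4 call was lost without replicate 1 of both strains in embryos (0.68, adjusted p = 0.0615). For kbp-5 the value was 0.13 ± 0.15 (adjusted p = 0.694).

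Between L4 and embryos the strain difference was larger at L4 for kbp-3, knl-1, mis-12, ndc-80 and him-10, which is 5 of the 8 genes against 3.85% of all probe sets. kbp-4 (0.38 ± 0.18, adjusted p = 0.257), knl-3 (0.20 ± 0.19, adjusted p = 0.655) and kbp-5 (0.00 ± 0.15, adjusted p = 0.994) were not called. The main knl-1 probe set gave 0.61 ± 0.13 (adjusted p = 0.00499). The second knl-1 probe set gave 0.40 ± 0.17 and was not called (adjusted p = 0.197). From L1 to L4 it shrank for 3 of the 8 genes, where 3.33% of all probe sets were called in that direction. knl-3 lost the most, at -0.84 ± 0.19 (adjusted p = 0.00897). The kbp-3 value of -0.57 ± 0.17 (adjusted p = 0.0495) was not called without N2 L1 replicate 2 or 3, mutant L1 replicate 1 or 3, any N2 L4 replicate or mutant L4 replicate 1 or 3, with adjusted p between 0.0641 and 0.13. The knl-1 value of -0.48 ± 0.13 (adjusted p = 0.0293) was not called without N2 L1 replicate 1, mutant L1 replicate 1 or 3, any N2 L4 replicate or mutant L4 replicate 1 or 3, with adjusted p between 0.0526 and 0.0837. With median-centred arrays the kbp-3 value was -0.55 (adjusted p = 0.0537), and as the mean of its probe sets the knl-1 value was -0.37 (adjusted p = 0.0799), so neither was called. The 3 stage comparisons share arrays with each other and are not independent.

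In the wild type all 8 genes fell from embryo to L1, where 33.6% of all probe sets were called lower. The fall ran from -1.28 ± 0.10 for mis-12 (adjusted p = 4.24e-10) to -2.21 ± 0.13 for kbp-4 (4.64-fold lower, adjusted p = 5.08e-12). No N2 L1 array reached the N2 embryo range for any of the 8, a separation that 34.7% of probe sets showed. Over all probe sets the median change was 0.129, and centring each array on its median moved it to 0.253. The median over the 8 genes was -1.75 as deposited, -1.62 after centring and -1.6 with quantile normalization applied again. Over the alternatives the mis-12 fall was as small as -0.93. Between L1 and L4 in N2, 2 genes rose, where 21.2% of probe sets did. These were knl-3, by 0.89 ± 0.13 (adjusted p = 1.58e-05), and kbp-5, by 0.45 ± 0.11 (adjusted p = 0.00126). Differences for the other 6 genes from L1 to L4 lay between 0.00 and 0.22. At L4 all 8 N2 levels were still below the embryo levels, as for 35.8% of probe sets, with differences between -0.85 ± 0.13 for knl-3 and -2.14 ± 0.13 for kbp-4. With quantile normalization applied again the knl-3 difference was -0.49.

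In lin-35(n745) the fall from embryo to L1 was called for 6 of the 8 genes, against 32.9% of all probe sets. kbp-5 fell by 1.88 on the log2 scale, 93.6% of its fall in N2, and kbp-4 fell by 1.45, 65.4% of its N2 fall. him-10 fell by 1.01 (51.8% of the N2 fall), ndc-80 by 0.78 (44.9%), knl-3 by 0.70 (40.2%) and knl-1 by 0.67 (37.9%). mis-12 changed by -0.22 ± 0.10, 17.3% of its N2 fall, and was not called (adjusted p = 0.0545). The mis-12 fall was called with the filter on low levels (adjusted p = 0.044) and with probe sets averaged by gene (adjusted p = 0.0457). It was also called without mutant L1 replicate 1 (-0.29, adjusted p = 0.0218). kbp-3 stood at 0.02 ± 0.12 (adjusted p = 0.915), with a mean of 11.58 ± 0.10 at L1 and 11.56 ± 0.22 in embryos (SD, n = 3). With quantile normalization applied again, knl-3 stood at -0.41, ndc-80 at -0.49 and mis-12 at 0.09. The median over the 8 genes moved from -0.737 to -0.525, and the shares of the N2 fall were not recomputed under the alternatives. The share of the N2 fall is a second reading of the interaction above, since both use the same arrays.

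**Figure D3:**
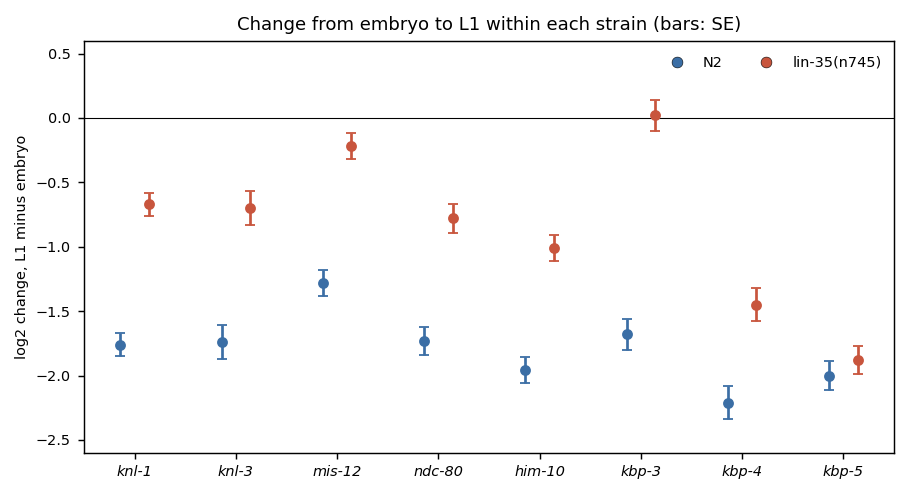
Log2 change from embryo to L1 for each gene in N2 (blue) and lin-35(n745) (red), with SE bars from the limma fit (n = 3 arrays per group). All N2 points lie at or below -1.28, kbp-3 in the mutant lies at 0.02, and the points of the strains are closest for kbp-5.

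Mutant L1 larvae can also be set against wild-type embryos, the group with the highest N2 levels. kbp-3 was higher in lin-35(n745) L1 larvae than in N2 embryos by 0.67 ± 0.12 (adjusted p = 5.59e-05), where 36.5% of all probe sets were called higher, and mis-12 differed by -0.06 ± 0.10 (95% interval -0.26 to 0.15, adjusted p = 0.621). The other 6 genes were lower in the mutant L1 larvae than in N2 embryos, from -0.32 ± 0.13 for knl-3 (adjusted p = 0.0386) to -1.76 ± 0.11 for kbp-5 (adjusted p = 6.06e-12), where 33.7% of all probe sets were called lower. This comparison crosses strain and stage and was not recomputed under the alternatives, and its knl-3 call lies near the threshold.

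From L1 to L4 in the mutant, kbp-3 fell by 0.40 (adjusted p = 0.0115) and knl-1 fell by 0.26 (adjusted p = 0.0281), where 23.7% of probe sets fell, while kbp-5 rose by 0.33 (adjusted p = 0.0142), where 19.5% rose. The kbp-3 call was lost without mutant L4 replicate 1 (adjusted p = 0.0613) or 3 (adjusted p = 0.0505), and the kbp-5 call without mutant L1 replicate 3 (adjusted p = 0.0811) or mutant L4 replicate 3 (adjusted p = 0.0582). The knl-1 call was lost without replicate 1 or 3 of either mutant larval group, with adjusted p between 0.0654 and 0.104. It was also lost as the mean of the gene's probe sets (-0.17, adjusted p = 0.137), and the second knl-1 probe set gave -0.07 ± 0.12 (adjusted p = 0.687). Compared with mutant embryos, mutant L4 larvae had lower levels of 7 genes, against 35.9% of probe sets, and mis-12 differed by -0.09 ± 0.10 (adjusted p = 0.445). The kbp-3 difference in that comparison was -0.38 ± 0.12 (adjusted p = 0.00856) and was not called without replicate 1 of mutant embryos (-0.27, adjusted p = 0.0636). With quantile normalization applied again, knl-3 stood at -0.35 and ndc-80 at -0.51 in that comparison, and mis-12 was higher by 0.23 (adjusted p = 0.0368).

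The order of the 6 groups differed between genes. Neighbours in the order were picked from the values themselves, so calls between them are descriptions. For kbp-3 all 3 mutant groups lay above N2 embryos, with mutant L1 (11.58) and mutant embryos (11.56) not told apart at the top, and N2 L4 (9.40) and N2 L1 (9.23) not told apart at the bottom. The step from mutant L4 (11.18) down to N2 embryos (10.90) was 0.28 ± 0.12, with an adjusted p of 0.0469 near the threshold. For mis-12 the 3 mutant groups and N2 embryos, between 9.07 and 9.29, were not separated from their neighbours in the order, and N2 L4 and N2 L1 stood below them, both at 7.85. For knl-1, ndc-80 and him-10 the embryo groups of both strains were at the top, the mutant larvae in the middle and the N2 larvae at the bottom. In kbp-4 the same order held, with mutant embryos (9.42) above N2 embryos (8.86). For kbp-5 the order followed stage alone, with embryos at 9.53 and 9.64 and all larval groups between 7.52 and 8.09. For knl-3 the N2 L4 level of 8.32 lay well above the N2 L1 level of 7.43, and the mutant L1 (8.85) and L4 (8.89) levels were not told apart.

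The 8 genes lie on 5 chromosomes in the RefSeq table of assembly WBcel235, with kbp-5 and mis-12 on I, kbp-3 on II, kbp-4, knl-1 and him-10 on III, ndc-80 on IV and knl-3 on V. They moved together across the 18 arrays to unequal degrees. The Pearson correlation of a gene with the mean of the other 7 was 0.997 for him-10, 0.978 for knl-1 and 0.974 for kbp-4, and 0.81 for kbp-3 and 0.813 for kbp-5. After the mean of each stage was taken off, it was 0.974 for kbp-3, 0.814 for ndc-80 and 0.693 for kbp-5, with the other 5 between 0.926 and 0.997. The arrays fall into 6 groups, so these values describe the shared group pattern and carry no test.

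Genes whose products work beside the outer kinetochore were read from 5 further lists. Of all probe sets, 5.92% were called higher and 3.78% lower in embryos, and 8.24% were called higher at L1 and 7.77% at L4. Of the inner kinetochore and centromere, where HCP-3 is the centromeric histone and HCP-4 the counterpart of CENP-C, 3 of 4 genes rose at L1 and 3 at L4. In embryos limma called 0 of the 4, and 1 had an unadjusted p under 0.05. hcp-4 rose by 0.92 ± 0.11 at L1 (adjusted p = 4.07e-06) and hcp-3 by 0.63 ± 0.10 (adjusted p = 0.000119). At L4 the hcp-4 call was lost on leaving out any single N2 replicate (adjusted p between 0.0633 and 0.0949) or mutant replicate 1 (0.24, adjusted p = 0.195). The hcp-3 call at L4 was lost without N2 replicate 2 (adjusted p = 0.056) or mutant replicate 3 (adjusted p = 0.0621). Of the chromosomal passenger complex, which corrects faulty attachments, icp-1 (1.16 ± 0.11), the Aurora B kinase gene air-2 (0.91 ± 0.13) and csc-1 (0.77 ± 0.13) rose at L1, and the same 3 of 4 genes rose at L4. In both lists the median L1 difference was smaller than the 1.2 of the outer kinetochore, at 0.598 and 0.839.

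The outer corona, RZZ complex and spindle checkpoint, which sit on the KMN network, had 13 of 15 genes higher at L1 and 10 at L4, with median differences of 0.723 and 0.491. The checkpoint gene san-1 rose by 1.17 ± 0.11 at L1 (adjusted p = 9.62e-08), hcp-2 by 0.93 ± 0.12 (adjusted p = 1.5e-05), the RZZ gene zwl-1 by 0.91 ± 0.09 (adjusted p = 1.74e-07) and the checkpoint gene mdf-2 by 0.90 ± 0.12 (adjusted p = 1.35e-05). In embryos cls-2 and zwl-1 rose and cyb-3, a B-type cyclin gene, fell by 0.33 (adjusted p = 0.0488). The cyb-3 call was lost with only the embryo arrays (adjusted p = 0.0889), with array weights (0.0611), with a replicate block (0.0669) and on leaving out any single embryo array other than N2 replicate 2 (0.0777 to 0.186). As the mean of their probe sets, neither cyb-3 (-0.18, adjusted p = 0.199) nor zwl-1 (0.24, adjusted p = 0.123) was called in embryos. Of mitotic kinases, phosphatases and exit factors, 7 of 12 measured genes rose at L1 and 5 at L4, among them air-1, plk-1, fzy-1 and cdk-1, which rose by between 0.74 and 0.91 at L1. Of the microtubule motors and depolymerases, 4 of 7 genes were higher in embryos, 3 at L1 and 2 at L4, beside 5.92%, 8.24% and 7.77% of all probe sets. Without replicate 1 of both strains in embryos the calls of all 4, dhc-1, klp-7, bmk-1 and klp-19, were lost there, with adjusted p between 0.0611 and 0.214. At L1 the dhc-1 difference was 0.40 (adjusted p = 0.0422), and without mutant replicate 3 it was 0.19 (adjusted p = 0.266). The dhc-1 call was also lost with only the L1 arrays (adjusted p = 0.227), median-centred arrays (0.0663), quantile normalization applied again (0.0511) and a replicate block (0.0504). Leaving out N2 L1 replicate 1 (0.12) or 3 (0.13) ended it too. For those 7 genes limma called 0 changes of the strain difference from embryo to L1, with 2 at an unadjusted p under 0.05 and a median of 0.0523, beside 0.996 for the outer kinetochore. Differences between lists were not tested.

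**Figure D4:**
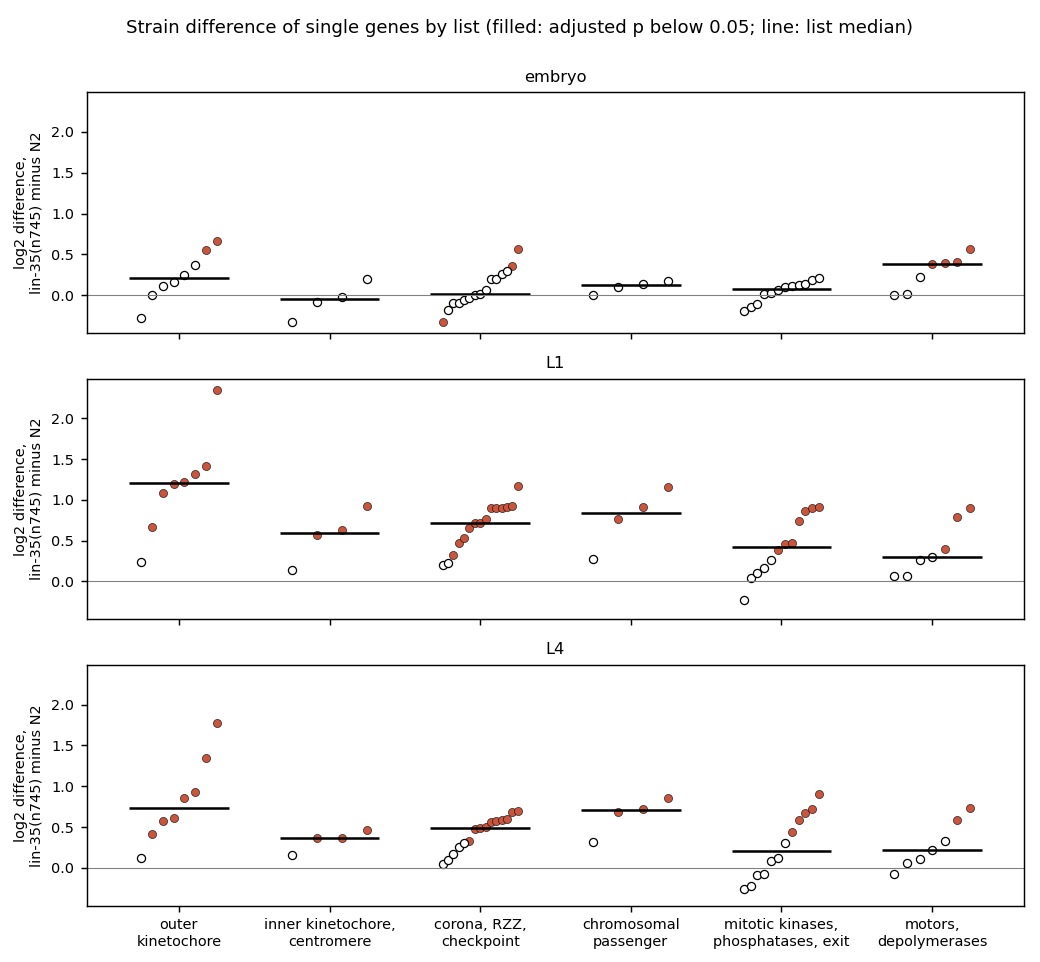
Log2 difference, lin-35(n745) minus N2, of single genes in the outer kinetochore list and 5 related lists, at each stage; each point is 1 gene, filled where its adjusted p was under 0.05, and the line is the list median. At L1 the outer kinetochore median is 1.2 and the other medians lie between 0.298 and 0.839.

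Because whole worms were measured, marker lists were followed beside the outer kinetochore genes. The array mean of 11 germline genes lay between 6.58 and 6.86 in N2 L1 larvae and between 8.27 and 8.35 in mutant L1 larvae, with 5 of the 11 genes higher and 1 lower. The 5 were pgl-1 (3.25 ± 0.11), pgl-3 (4.81 ± 0.10), glh-1 (2.85 ± 0.13), him-3 (4.48 ± 0.12) and syp-1 (3.46 ± 0.14), which encode P granule or synaptonemal complex and chromosome axis proteins. The germline genes glh-4 (-0.10 ± 0.11), nos-2 (-0.16 ± 0.14), mex-5 (-0.12 ± 0.16), cgh-1 (0.22 ± 0.14) and htp-3 (-0.19 ± 0.11) were not called, and gld-1 fell by 0.52. At L4 the germline means lay between 8.91 and 8.95 in N2 and 9.37 and 9.38 in the mutant, with 5 genes higher and 2 lower, and in embryos between 8.48 and 8.53 and between 8.89 and 9.08, with 4 higher. Of all 22548 probe sets, 1859 were called higher and 1564 lower at L1, 1751 and 1687 at L4, and 1335 and 853 in embryos.

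For markers of other cell types at L1, the calls were fewer or went the other way. Of 6 oocyte genes 1 was higher and 3 lower, of 8 sperm genes 3 were lower, of 6 intestine genes 1 was higher and 2 lower, and of 5 measured hypodermis and cuticle genes 1 was lower. Of all 22548 probe sets, 8.24% were called higher and 1564 lower at L1. The sperm means at L1 lay between 4.99 and 5.93 and the oocyte means between 5.86 and 6.90, both below their L4 means. Whether these calls describe sperm or oocytes was not tested. Of 6 neuron, 5 body muscle and 8 embryonic patterning genes limma called 0, with 0, 1 and 3 at an unadjusted p under 0.05. N2 L1 replicate 1 had the highest means of its group for germline (6.86), oocyte (6.90), sperm (5.93) and intestine genes (8.97), and was the highest array for 1 of the 8 outer kinetochore genes. The part of germline or other cell numbers in the outer kinetochore differences was not tested.

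**Figure D5:**
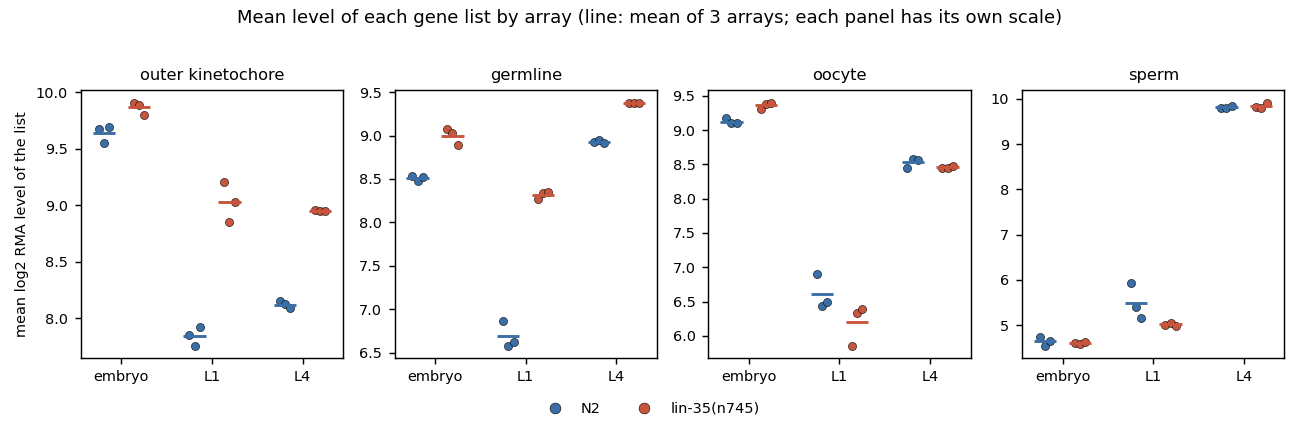
Mean log2 RMA level of the 8 outer kinetochore genes and of the germline, oocyte and sperm marker lists on each array, by stage and strain (blue N2, red lin-35(n745)); lines are means of 3 arrays and each panel has its own y scale. At L1 the outer kinetochore and germline means are both higher in the mutant, and the N2 outer kinetochore means lie between 7.76 and 7.92 at L1 and between 8.09 and 8.15 at L4.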

How the data were processed

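Per the submitters' processing notes, the authors produced the deposited log2 values by RMA, giving a single value for each probe set on each array. The RMA version and the logarithm's base are not stated there. Base 2 was inferred from the values, which lie between 2.55 and 15.02 with array medians of 6.20 to 6.39, and every fold depends on it. RMA reports no detection calls. Precision is limited by the number of arrays. Raw scans were not analysed here. The table holds 22625 probe sets, from which 77 control probe sets were removed.

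Group means of the 6 groups were estimated in limma 3.58.1 (R 4.3.3) from the 18 arrays together, with 12 residual and 7.66 prior degrees of freedom. Two-sided p-values were adjusted by Benjamini and Hochberg's method over the remaining 22548 probe sets of each contrast. The fit was tested on simulated data. Gene names came from the platform annotation, in which 20766 probe sets name 1 gene, 887 several and 895 none. All groups were taken from sample titles. 0 pairs of arrays held identical values. The genes named are all 10 listed, up to 4 called genes per related list and contrast (the 2 of smallest p where none was called), and the 10 most alike in pattern; the text gives a selection. Members and lists were chosen with earlier results of these data known. Alternatives covered the normalization, the filter on low levels, the variance model, array weights, the arrays in the fit, the replicate block, left-out arrays and the probe set per gene.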

Additional observations from a re-analysis of the deposited data

Results flagged for a closer look

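A result was picked out where the strain difference of an outer kinetochore gene was not the same at a pair of stages by the interaction test of limma, with n = 3 arrays per group. Groups of 3 arrays are too small for a test of single arrays that stand apart. Between embryo and L1 the strain difference grew for kbp-3 (1.69), kbp-4 (0.77), knl-1 (1.09), knl-3 (1.04), mis-12 (1.06), ndc-80 (0.95) and him-10 (0.94). Between L1 and L4 it shrank for kbp-3 (-0.57), knl-1 (-0.48) and knl-3 (-0.84). Between embryo and L4 it grew for kbp-3 (1.12), knl-1 (0.61), mis-12 (1.19), ndc-80 (0.69) and him-10 (0.62). The second knl-1 probe set was called between embryo and L1 (0.65, adjusted p = 0.0217). It was not called between L1 and L4 (-0.25, adjusted p = 0.508) or between embryo and L4 (0.40, adjusted p = 0.197).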

How the results depend on the processing

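Of 236 recomputed counts of called genes per comparison, 219 stayed within 1.5 times their value and 17 did not. Leaving out 1 array at a time gave 1 to 2 outer kinetochore genes for the strain difference in embryos, 7 at L1 and 6 to 7 at L4. It gave 7 for L1 against embryo between strains, 1 to 4 for L4 against L1 and 5 for L4 against embryo. Within N2 it gave 8, 2 to 3 and 8 for L1 minus embryo, L4 minus L1 and L4 minus embryo, and within lin-35(n745) 6 to 7, 0 to 4 and 6 to 7. Over all probe sets it gave 1499 to 1855 calls in embryos, 2399 to 4067 at L1 and 2548 to 2931 at L4. Without replicate 1 of both strains 1265 probe sets were called in embryos. Only the L1 arrays gave 1584 at L1, and array weights gave 6687 at L4 and 4 outer kinetochore genes for L4 minus L1 within N2. Deviations of same-numbered arrays of both strains from their group means correlated at -0.0521 to 0.269, and not every array correlated best with its own number, so the numbers were not taken as pairs. A replicate block gave 1 gene for L4 minus L1 within N2, 1 within lin-35(n745) and 1 for L4 against L1 between strains. The block was coded against replicate 1, so its stage comparisons within a strain contrast fitted replicate 1 levels and not group means. Among the outer kinetochore genes the block ended calls only for L4 against L1. These were kbp-5 in both strains (0.34 and 0.22), knl-1 in lin-35(n745) (-0.23), and kbp-3 and knl-1 between strains (-0.57 and -0.48). Apart from the coding of the block, the cause of these shifts was not tested, and fits of fewer arrays have fewer degrees of freedom.

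Of 1568 recomputed differences of the outer kinetochore genes, 1489 kept direction and side of the threshold, 39 lost the call, 13 gained it and 27 changed sign. The sign changes were those of uncalled values near 0, apart from mis-12 under repeated quantile normalization. For kbp-5, L4 against embryo between strains, the values were -0.01 centred, -0.03 with quantile normalization, -0.00, -0.03 and -0.03 without N2 L4 replicate 1 or 2 or mutant L4 replicate 3, -0.00 and -0.08 without N2 embryo replicate 1 or 3, and -0.01 and -0.00 without mutant embryo replicate 2 or 3. For mis-12, L4 minus L1 within N2 was -0.03 centred, -0.09 with the replicate block, -0.06 without N2 L1 replicate 2 and -0.07 without N2 L4 replicate 2, and up to 0.06 without other arrays. Within lin-35(n745), mis-12 was at 0.09 for L1 minus embryo with quantile normalization, and for L4 minus embryo at 0.00 centred and 0.23 with quantile normalization (adjusted p = 0.0368). kbp-4, L4 minus L1 within N2, was -0.08 with the block and -0.01 without N2 L1 replicate 2. The block values of mis-12 and kbp-4 contrast replicate 1 levels, as stated above, and not group means. Within lin-35(n745), kbp-3 for L1 minus embryo was -0.03 without L1 replicate 1 and -0.10 without embryo replicate 3, ndc-80 for L4 minus L1 was 0.07 without L1 replicate 1 (down to -0.19 without other arrays), and knl-3 was -0.11 and -0.04 without L1 replicate 2 or L4 replicate 3 (up to 0.16). knl-1 in embryos was 0.05 and 0.02 without N2 replicate 1 or mutant replicate 2 (down to -0.05 without others), 0.04 without replicate 1 of both strains and 0.12 as the mean of its probe sets. Of 598 recomputed counts of the other lists, whose alternatives were chosen after seeing the data, 69 moved by over 1.5 times. RMA values near background limit low genes, and 3 arrays a group limit small differences.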

Other observations

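The genes with the pattern most like that of the outer kinetochore mean over the 18 arrays, among 17110 other genes, were sld-2 (Pearson r 0.988), san-1 (0.986), icp-1 and brc-1 (0.984 each), dpl-1 and aspm-1 (0.983 each), lig-1 and rfc-3 (0.981 each), and nasp-1 and sas-6 (0.979 each). Their strain differences at L1 ran from 0.79 for aspm-1 to 1.58 for sld-2. After the mean of each stage was taken off, a different set led: R02F2.4 (0.987), snpc-1.2 and pid-2 (0.985 each), Y51H7C.3 (0.983), zhp-2, Y54G9A.5 and Y39E4B.5 (0.982 each), ddn-1 (0.981), and inx-22 and rcd-1 (0.98 each). These had strain differences at L1 from 2.85 for snpc-1.2 to 5.72 for ddn-1, beside a median of 1.2 for the outer kinetochore genes. The correlations are descriptions over arrays that fall into 6 groups.

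Of the 16 neighbouring genes on the chromosomes, 1 on each side of the 8 genes, 13 were measured, and their median strain difference at L1 was 0.03. At L1 2 of the 13 were higher and 2 lower, while of all 22548 probe sets 8.24% were called higher and 1564 lower. The called neighbours are named here after their values were seen. par-2, next to kbp-4, rose by 0.94 ± 0.13 (adjusted p = 1.93e-05). nurf-1, next to kbp-3, fell by 1.02 (adjusted p = 0.000187), and ndua-13, next to kbp-5, fell by 0.33 (adjusted p = 0.0426). Y47G6A.25 lies next to mis-12. The ndua-13 call was lost with only the L1 arrays (adjusted p = 0.143), with quantile normalization applied again (0.0617), with array weights (0.0784), on leaving out any single N2 L1 array (0.0772 to 0.137) and without mutant L1 replicate 3 (-0.23, adjusted p = 0.205). Y47G6A.25 rose by 0.60 ± 0.13 in embryos (adjusted p = 0.00373), by 4.04 ± 0.13 at L1 (adjusted p = 5.64e-15) and by 1.67 ± 0.13 at L4 (adjusted p = 6.31e-09), a larger L1 value than that of mis-12 itself (1.22).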
